A study of Mus musculus with 48 samples.

Results

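The comparison of 30 with 10 µg/kg of the dioxin TCDD, made within each vehicle animal, covered 12 of the 48 arrays of the series, 6 of its 24 animal pairs and 3 within-vehicle differences. All animals were female C57BL/6 mice whose age is not given in the labels. They received sesame oil (vehicle) or TCDD by gavage every 4 days for 28 days, and 1 label also calls the gavage daily. RNA of the jejunal epithelium of 1 treated and 1 vehicle animal shared each 2-colour Agilent array, and each such pair had 2 arrays, the second with the dyes turned round. The treated animals were 68, 70 and 71 at 10 µg/kg, against 76, 78 and 79 at 30 µg/kg, set in this order against vehicle animals 2, 4 and 6. The same 3 vehicle animals served all 8 doses from 0.01 to 30 µg/kg. The arrays were selected by these labels and not by a measured value. The comparison itself was chosen with earlier results of these data known.

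TCDD is a ligand of the aryl hydrocarbon receptor (AHR), a transcription factor of the bHLH-PAS family. Bound AHR enters the nucleus, pairs with ARNT and binds DNA at dioxin response elements, whose core letters are GCGTG. Its textbook targets include the Cyp1 monooxygenases, which metabolise the ligand, and the AHR repressor Ahrr, which competes for ARNT. The jejunal epithelium absorbs nutrients and meets AHR ligands from the diet.

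The values are log ratios, read here as log2 of treated over vehicle. Neither the base nor the sign is stated in the labels. Cyp1a1 was above 0 on 12 of 12 arrays, from 1.48 to 3.74, in both dye orientations, which makes the direction likely. The 2 arrays of a pair were averaged, each array was centred on its median, and the pair at 10 µg/kg was subtracted from the pair at 30 µg/kg that shared its vehicle animal. The vehicle animal cancels in this difference. Of 41085 probes, 23901 had a value on all 12 arrays and were not at a value shared by 200 or more probes of an array, and they gave 14202 genes. The 12 arrays held 29630 to 32216 values each. No intensities were available, so the level of epithelial markers could not be checked and a probe near background could not be told from a bright one. The number of animal pairs limits the precision.

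In this comparison 11 of the 14202 genes (0.0775%) passed a Benjamini-Hochberg adjusted p of 0.05 in a limma fit of all 24 pairs with the vehicle animal as a block. Of these, 10 were higher at 30 than at 10 µg/kg (0.0704% of genes) and 1, Dnase1, was lower (0.00704%). The 10 that rose were Apobec2, Tmigd1, Ahrr, Cyp1a2, Olfr114, Pou3f1, Insl6, Pask, Rab33a and Olfr1182. Each of the 11 genes had 1 sign in all 3 differences, and also in all 6 differences taken within a dye orientation. The genes were called on the mean of these 3 differences, and the 6 come from the same RNA, so neither is separate evidence. All 11 changed by at least 1.5-fold, and each rested on 1 probe. In 10 of the 11 the 3 values at 30 µg/kg did not overlap the 3 values at 10 µg/kg, which held for 6.58% of all genes. The calls depend on the spread shared with the other doses: limma on the 3 differences alone called 0 genes, with a smallest adjusted p of 0.0817 and 1543 genes at an unadjusted p under 0.05. Leaving out the 30 and 10 µg/kg pairs of vehicle animal 2, 4 or 6 gave 1, 5 or 12 called genes. Of the 11 genes, 1, 4 and 9 were among these.

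**Figure D1:**
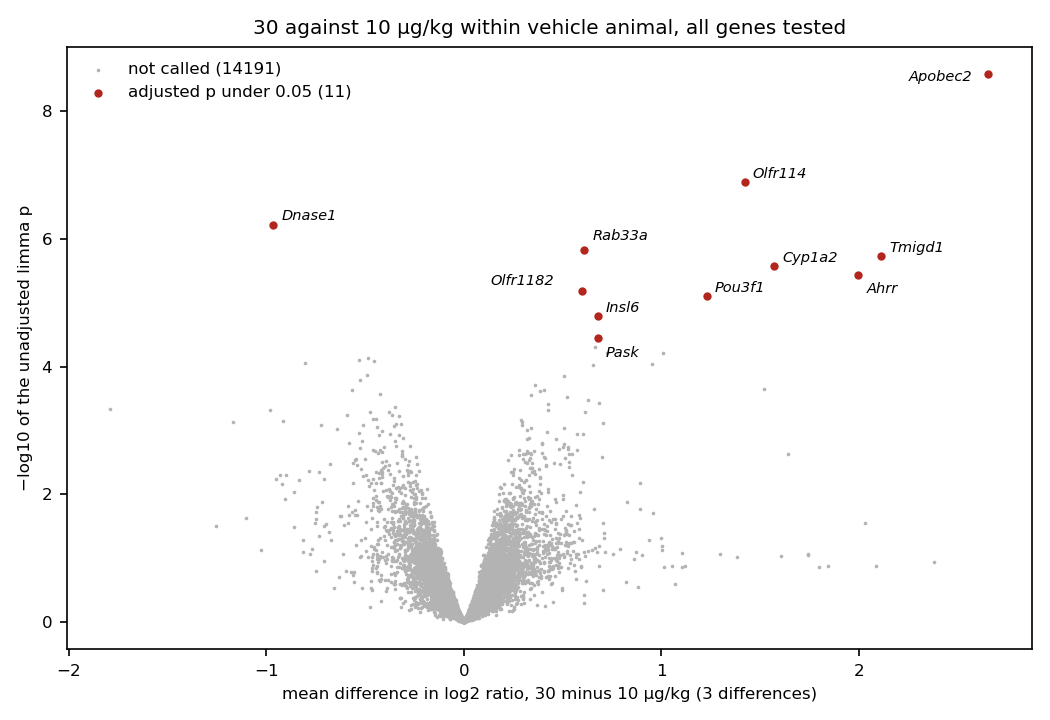
Mean difference in log2 ratio between 30 and 10 µg/kg (x axis, 3 differences per gene) against the −log10 unadjusted limma p (y axis) for 14202 genes. The 11 called genes are in red, with Dnase1 alone on the left at -0.96 and Apobec2 farthest right at 2.66.

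The promoter windows of the called genes are shown because the core letters of the dioxin response element can be read in them directly. RefSeq windows of build GRCm38.p6 were held for 9 of the 11 genes, as 11 windows, and 250 bases before each annotated start were searched for GCGTG or its reverse complement CACGC. These letters were in 4 of the 11 windows, 1 each for 4 genes, against 28.2% of all 32851 windows. The 4 windows with a match and those of Apobec2 and Cyp1a2, which hold none, are printed 5′ to 3′ on the gene's strand, with matches in capitals. Ahrr lies at chr13:74292332-74292581 on the minus strand, the Tmigd1 window with a match at chr11:76890870-76891119 on the plus strand, Pask at chr1:93342789-93343038 (minus), Olfr1182 at chr2:88449122-88449371 (minus), Apobec2 at chr17:48432729-48432978 (minus) and Cyp1a2 at chr9:57683656-57683905 (minus).
Ahrr: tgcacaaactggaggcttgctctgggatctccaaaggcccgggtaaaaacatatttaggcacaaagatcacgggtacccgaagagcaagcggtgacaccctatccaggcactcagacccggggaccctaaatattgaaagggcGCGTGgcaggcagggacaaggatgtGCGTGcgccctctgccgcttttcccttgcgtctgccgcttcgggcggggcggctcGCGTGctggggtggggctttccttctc
Tmigd1: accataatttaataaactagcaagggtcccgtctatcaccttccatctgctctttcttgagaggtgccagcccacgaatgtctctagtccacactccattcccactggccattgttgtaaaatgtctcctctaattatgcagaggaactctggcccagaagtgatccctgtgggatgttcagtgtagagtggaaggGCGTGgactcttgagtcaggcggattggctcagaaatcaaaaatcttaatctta
Pask: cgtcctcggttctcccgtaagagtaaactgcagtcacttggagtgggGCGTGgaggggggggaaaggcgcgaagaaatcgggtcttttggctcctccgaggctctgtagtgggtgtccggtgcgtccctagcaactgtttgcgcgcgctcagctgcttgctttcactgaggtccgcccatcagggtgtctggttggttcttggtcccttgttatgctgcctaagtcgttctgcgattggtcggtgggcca
Olfr1182: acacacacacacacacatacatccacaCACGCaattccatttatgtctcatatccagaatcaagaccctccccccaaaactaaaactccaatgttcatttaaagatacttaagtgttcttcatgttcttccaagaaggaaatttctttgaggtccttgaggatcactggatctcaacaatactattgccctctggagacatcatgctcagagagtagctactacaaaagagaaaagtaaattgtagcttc
Apobec2: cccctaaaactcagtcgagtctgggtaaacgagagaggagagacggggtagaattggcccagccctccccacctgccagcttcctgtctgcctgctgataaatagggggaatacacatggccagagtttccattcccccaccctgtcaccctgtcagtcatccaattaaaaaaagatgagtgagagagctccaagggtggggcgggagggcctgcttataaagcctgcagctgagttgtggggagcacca
Cyp1a2: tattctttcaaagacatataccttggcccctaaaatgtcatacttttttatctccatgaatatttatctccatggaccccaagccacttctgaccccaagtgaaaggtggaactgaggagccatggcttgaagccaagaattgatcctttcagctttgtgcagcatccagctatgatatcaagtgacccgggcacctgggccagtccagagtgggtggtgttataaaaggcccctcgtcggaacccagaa
The Ahrr window holds 3 matches, which begin 107, 82 and 27 bases before the start. The single match begins 54 bases before the start in Tmigd1, 203 in Pask and 223 in Olfr1182. The second Tmigd1 window, both Dnase1 windows and those of Olfr114 and Rab33a hold none of these letters. A match is a run of letters, not a measured site.

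Both AHR pathway genes among the calls, the repressor Ahrr and the monooxygenase Cyp1a2, rose between 10 and 30 µg/kg. The log2 ratio of Ahrr in the pairs of vehicle animals 2, 4 and 6 was 0.92, 0.66 and 1.66 at 10 µg/kg, against 2.67, 3.81 and 2.75 at 30 µg/kg. The doses do not overlap, and the pair of vehicle animal 4 is the lowest at 10 and the highest at 30 µg/kg. The mean difference was 2.00 ± 1.05 (SD, n = 3; 3.99-fold; limma adjusted p 0.00733, 21 of 24 pairs in the fit). Ahrr was therefore already above the vehicle at 10 µg/kg, at a mean of 1.08 ± 0.52, while its 15 pairs at 0.01 to 3 µg/kg lay between -0.57 and 0.51.

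Cyp1a2, which oxidises aromatic amines and is best known from liver, had log2 ratios of 0.24, -0.03 and 0.58 at 10 µg/kg and then 1.89, 2.28 and 1.34 at 30 µg/kg. Its 10 µg/kg pairs lay near the 15 lower-dose pairs, which spanned -0.33 to 0.38, and all 3 pairs at 30 µg/kg were above them. The difference was 1.57 ± 0.78 (SD, n = 3; 2.97-fold; limma adjusted p 0.00631, 21 pairs in the fit). The kept probe is 1 of 2 Cyp1a2 probes of the array.

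Cyp1a1, the most widely used marker of AHR activation, gave no call. Its log2 ratio was 1.84, 3.05 and 3.03 at 10 µg/kg, against 2.67, 3.25 and 3.34 at 30 µg/kg, and the doses overlap. The difference was 0.44 ± 0.34 (SD, n = 3; limma adjusted p 0.882), with a 95% confidence interval of -0.36 to 1.24, so a further rise was not detectable with these pairs and is not shown to be absent. Tiparp, an ADP-ribosyltransferase that represses AHR, had 0.58, 0.47 and 0.34 at 10 µg/kg, against 1.65, 1.60 and 1.17 at 30 µg/kg. Its values do not overlap, and its difference of 1.01 ± 0.16 missed the threshold (limma adjusted p 0.0617).

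Of 20 genes listed as the AHR battery, 15 were measured. Besides the 2 called genes, 5 more had a positive difference at an unadjusted p under 0.05: Tiparp, the monooxygenases Cyp1b1 (0.46 ± 0.30) and Cyp2s1 (0.34 ± 0.26), the receptor gene Ahr itself (0.29 ± 0.02) and the amino acid transporter Slc7a5 (0.18 ± 0.12). That makes 7 of 15, where 3.42% of all genes were higher at that p, and 0 of 15 were lower, where 3.28% of all genes were. The median difference of the list was 0.29, against 0.01 over all genes tested. The partner gene Arnt had -0.06 ± 0.10 and Nfe2l2, which controls antioxidant genes, -0.03 ± 0.22. The NRF2 and AHR target Nqo1 had 0.21 ± 0.31, with 1 difference below 0.

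**Figure D2:**
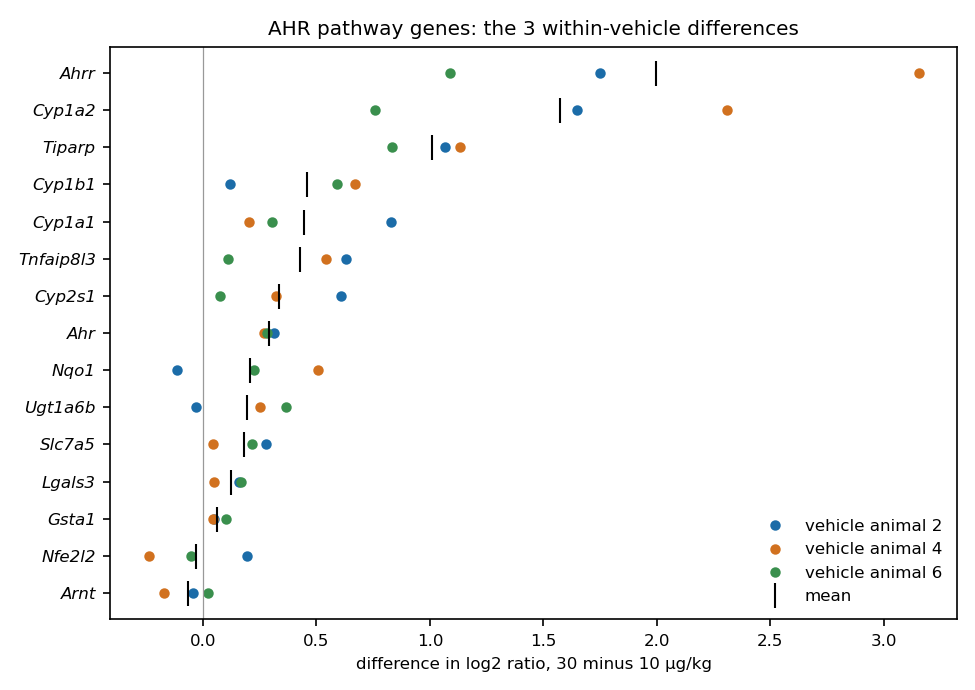
The 3 within-vehicle differences in log2 ratio (x axis, 30 minus 10 µg/kg) of the 15 measured AHR battery genes, coloured by vehicle animal, with the mean as a black bar. The means of Ahrr, Cyp1a2 and Tiparp lie to the right of the other means, and the 3 values of Ahr nearly coincide at 0.31, 0.27 and 0.28.

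Apobec2 and Tmigd1 had the largest rises of the called genes, from means of 0.19 ± 0.24 and -0.08 ± 0.90 (SD, n = 3) at 10 µg/kg. Apobec2 belongs to the family of APOBEC cytidine deaminases and is best known from heart and skeletal muscle. Its log2 ratio was -0.09, 0.34 and 0.31 at 10 µg/kg and then 2.31, 3.86 and 2.36 at 30 µg/kg. All 3 pairs at 30 µg/kg stood above the 3 pairs at 10 µg/kg and the 16 lower-dose pairs with a value, which spanned -0.64 to 0.20. The difference was 2.66 ± 0.76 (SD, n = 3; 6.30-fold; limma adjusted p 3.73e-05, 22 pairs in the fit). Among the skeletal and cardiac muscle genes, 14 of 19 were measured, Apobec2 was the only one called, and 1 more, the muscle actin Acta1, had a difference at an unadjusted p under 0.05.

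Acta1 had log2 ratios of 1.80, 2.32 and 1.44 at 10 µg/kg, against 3.21, 3.20 and 3.71 at 30 µg/kg. Its difference of 1.52 ± 0.70 was not called (limma adjusted p 0.123), although the doses do not overlap. The myogenic factors Myod1 (0.13 ± 0.06) and Myog (-0.08 ± 0.05) and the intermediate filament gene Des (-0.07 ± 0.19) had small differences, and the median of the list was 0.02.

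Tmigd1 encodes a transmembrane protein with immunoglobulin domains made by intestinal and renal epithelia. Its log2 ratio was -0.86, 0.91 and -0.28 at 10 µg/kg, against 1.79, 2.98 and 1.34 at 30 µg/kg. The pair of vehicle animal 4 was the highest at both doses, and the differences of 2.65, 2.07 and 1.62 were more alike than the ratios. Their mean was 2.11 ± 0.51 (SD, n = 3; 4.33-fold; limma adjusted p 0.00521). Its 18 lower-dose pairs spanned -1.40 to 0.74. Without the replicate block for the vehicle animal 8 genes were called, and Tmigd1, Insl6 and Pask were not among them.

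**Figure D3:**
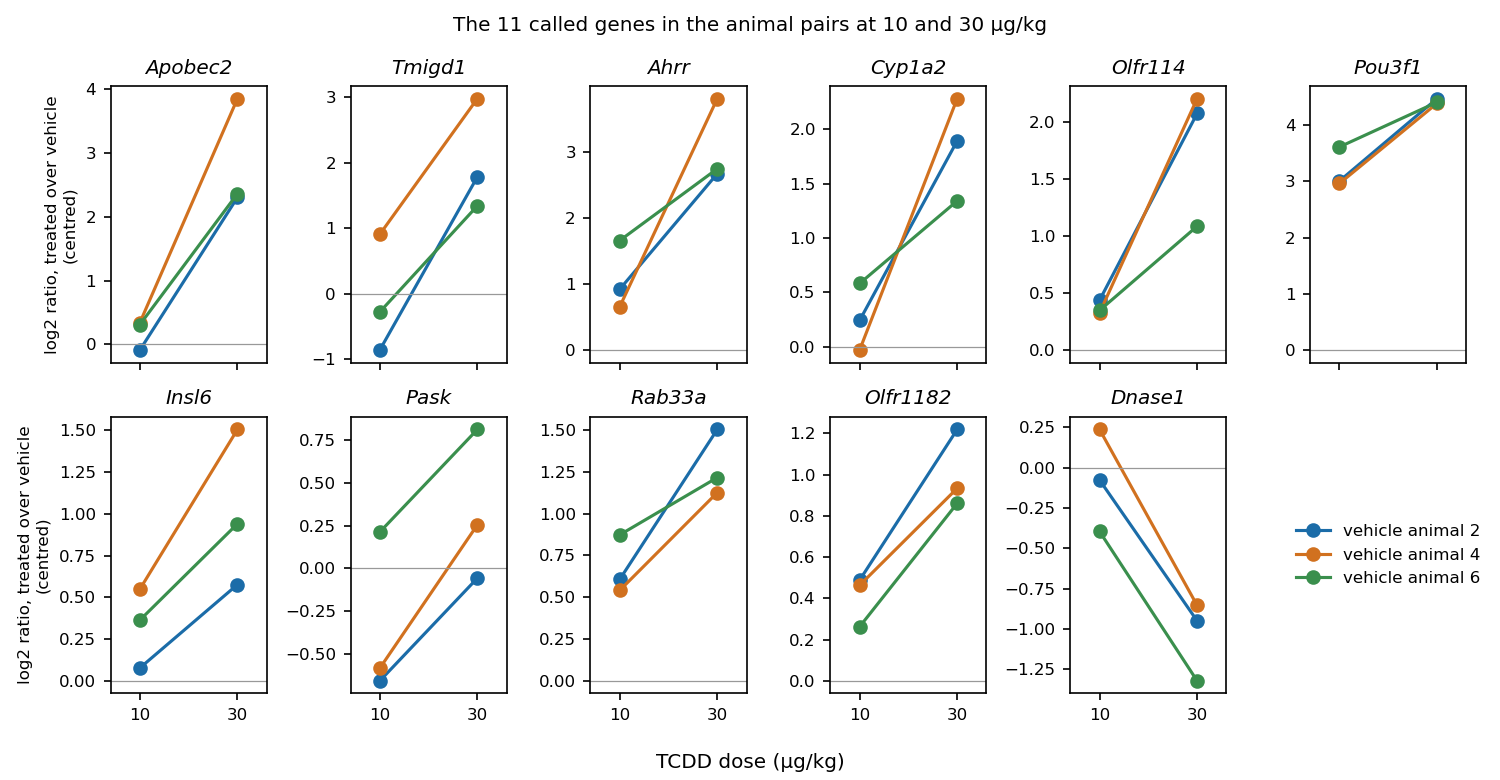
Centred log2 ratios of treated over vehicle (y axis, its own scale in each panel) at 10 and 30 µg/kg (x axis) for the 11 called genes; a line joins the 2 pairs that share a vehicle animal. The lines all rise except in Dnase1, and the doses overlap only in Pask.

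Pou3f1 and Rab33a were above the vehicle in all 3 pairs at 10 µg/kg and rose further. Pou3f1, a POU-domain transcription factor best known from Schwann cells and neural development, had log2 ratios of 3.01, 2.96 and 3.62 at 10 µg/kg and then 4.48, 4.39 and 4.41 at 30 µg/kg. The 30 µg/kg pairs differed less among themselves than the 10 µg/kg pairs, with SDs of 0.04 and 0.36. The difference was 1.23 ± 0.38 (SD, n = 3; 2.35-fold; limma adjusted p 0.0126). At 3 µg/kg the mean was 1.00 ± 0.62, so the step from 3 to 10 µg/kg, 2.20, was larger in value than the step from 10 to 30 µg/kg. Pou3f1 ranked between 2 and 12 from the top of all values on the 12 arrays. Under quantile normalization, which assigns the same value to the same rank on every array, its difference was -0.01.

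Of the 12 POU and neural transcription factor genes listed, 5 were measured. Pou3f1 was the only one called, and Pou3f2 (0.08 ± 0.10) and Egr2 (0.02 ± 0.09) had small differences. Pou5f1 had a difference of -0.75 ± 1.14 at an unadjusted p of 0.0279 (limma adjusted p 0.677), which came mostly from vehicle animal 4 with -2.07 against -0.15 and -0.04.

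Rab33a, a small GTPase of the Golgi and of secretory vesicles, had log2 ratios of 0.61, 0.54 and 0.87 at 10 µg/kg, against 1.5, 1.13 and 1.22 at 30 µg/kg. The doses do not overlap, and all 6 values stood above the 18 lower-dose pairs, which lay between -0.11 and 0.18. The difference was 0.61 ± 0.28 (SD, n = 3; 1.52-fold; limma adjusted p 0.00521), close in size to the step of 0.54 from 3 to 10 µg/kg. Of 14 genes listed for RAB33 partners and autophagy, 12 were measured and Rab33a was the only one called. Its paralogue Rab33b had a difference of 0.04 ± 0.03, and Atg16l1, which binds RAB33B, had -0.00 ± 0.12. Becn1, a subunit of the autophagy lipid kinase, had 0.24 ± 0.13 (unadjusted p 0.0199; limma adjusted p 0.640).

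Dnase1, the secreted endonuclease that digests extracellular DNA, was the only gene called lower, although 1 of 3 probes of Chpt1 was also called lower when probes were tested singly. Its log2 ratio was -0.08, 0.24 and -0.40 at 10 µg/kg, against -0.95, -0.85 and -1.32 at 30 µg/kg. The pair of vehicle animal 6 was the lowest at both doses, and no 30 µg/kg value reached the 10 µg/kg values or the 18 lower-dose pairs, which lay between -0.27 and 0.16. The 3 differences, -0.87, -1.09 and -0.93, had a mean of -0.96 ± 0.11 (SD, n = 3; limma adjusted p 0.00281), which makes the ratio 1.95-fold lower at 30 µg/kg. Between 3 and 10 µg/kg its mean moved by -0.04.

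The list for nucleases of cell-free and apoptotic DNA held 13 genes, among them Actb and Dffa, which do not encode nucleases. Of these 13, 10 were measured, Actb and Dffa included, and Dnase1 was the only one with a difference at an unadjusted p under 0.05. Its relatives Dnase1l1, Dnase1l2 and Dnase1l3 had differences of -0.08 ± 0.14, 0.03 ± 0.09 and -0.01 ± 0.18. The exonuclease Trex1 had 0.08 ± 0.16 and the apoptotic nuclease Dffb 0.03 ± 0.20. The median of the list was -0.01.

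The olfactory receptor genes Olfr114 and Olfr1182 rose. Olfactory receptors are G-protein coupled receptors of the nasal epithelium, and some are transcribed elsewhere. The log2 ratio of Olfr114 was 0.44, 0.33 and 0.35 at 10 µg/kg and then 2.08, 2.21 and 1.09 at 30 µg/kg. The 10 µg/kg values lay close together above the 18 lower-dose pairs (-0.09 to 0.16), while at 30 µg/kg the pair of vehicle animal 6 was about 1 unit under the other two. The difference was 1.42 ± 0.60 (SD, n = 3; 2.68-fold; limma adjusted p 0.000911). Olfr1182 went from 0.49, 0.46 and 0.26 to 1.22, 0.93 and 0.86, with no overlap and a difference of 0.60 ± 0.13 (1.52-fold; limma adjusted p 0.0116). Of 596 olfactory receptor genes measured, these were the 2 called; 18 were higher and 16 lower at an unadjusted p under 0.05, shares near those of all genes, and the median difference was 0.01. The probes' similarity to other receptor genes was not examined.

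Insl6 and Pask completed the calls. Insl6, a relaxin-family peptide best known from testis, had log2 ratios of 0.08, 0.55 and 0.36 at 10 µg/kg, against 0.58, 1.51 and 0.94 at 30 µg/kg. The lowest value at 30 µg/kg stood just above the highest at 10 µg/kg. Its difference was 0.68 ± 0.24 (SD, n = 3; 1.60-fold; limma adjusted p 0.0232). Pask, a serine/threonine kinase with a PAS domain, had -0.66, -0.58 and 0.21 at 10 µg/kg, against -0.06, 0.25 and 0.81 at 30 µg/kg. These values overlap between doses and rise only within each vehicle animal. The difference was 0.68 ± 0.14 (limma adjusted p 0.0469) with 18 of 24 pairs in the fit, since none of the 6 lower-dose pairs of vehicle animal 6 had a value. The other 12 lower-dose pairs lay between -0.54 and 0.10, so that 2 pairs at 10 µg/kg were below this range and 1 pair at 30 µg/kg was within it. The alternatives were tallied gene by gene, apart from single probes and the fold minimum. Insl6 was not called in 9 of these 14, and Pask in 10 of the 13 that tested it. Olfr1182 was not called in 7 of the 14 and Tmigd1 in 6. In 1 of these alternatives only 1 pair at 30 µg/kg remained.

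The courses over all 8 doses show where the step from 10 to 30 µg/kg lies in each gene's response. Whether that step differed from the step from 3 to 10 µg/kg was tested in the same fit for 14195 genes. The limma test called 0 genes, with a smallest adjusted p of 0.165 and 538 genes at an unadjusted p under 0.05. The 2 genes with that smallest value were Pask and Apobec2, whose steps differed by 1.34 ± 0.20 and 2.29 ± 0.39 (SE). Pask fell and then rose, with means of 0.06 at 3 µg/kg (2 pairs), -0.34 at 10 and 0.34 at 30 µg/kg. Apobec2 rose in both steps, by 0.37 and then by 2.66. For Dnase1 the steps differed by -0.93 ± 0.22 (SE) and for Pou3f1 by -0.97 ± 0.34 (SE), with adjusted p values of 0.999. Apobec2, Tmigd1 and Dnase1 thus had means near 0 at 10 µg/kg, and Pou3f1, Ahrr and Rab33a did not, but a different shape of the course was not shown for any of them.

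**Figure D4:**
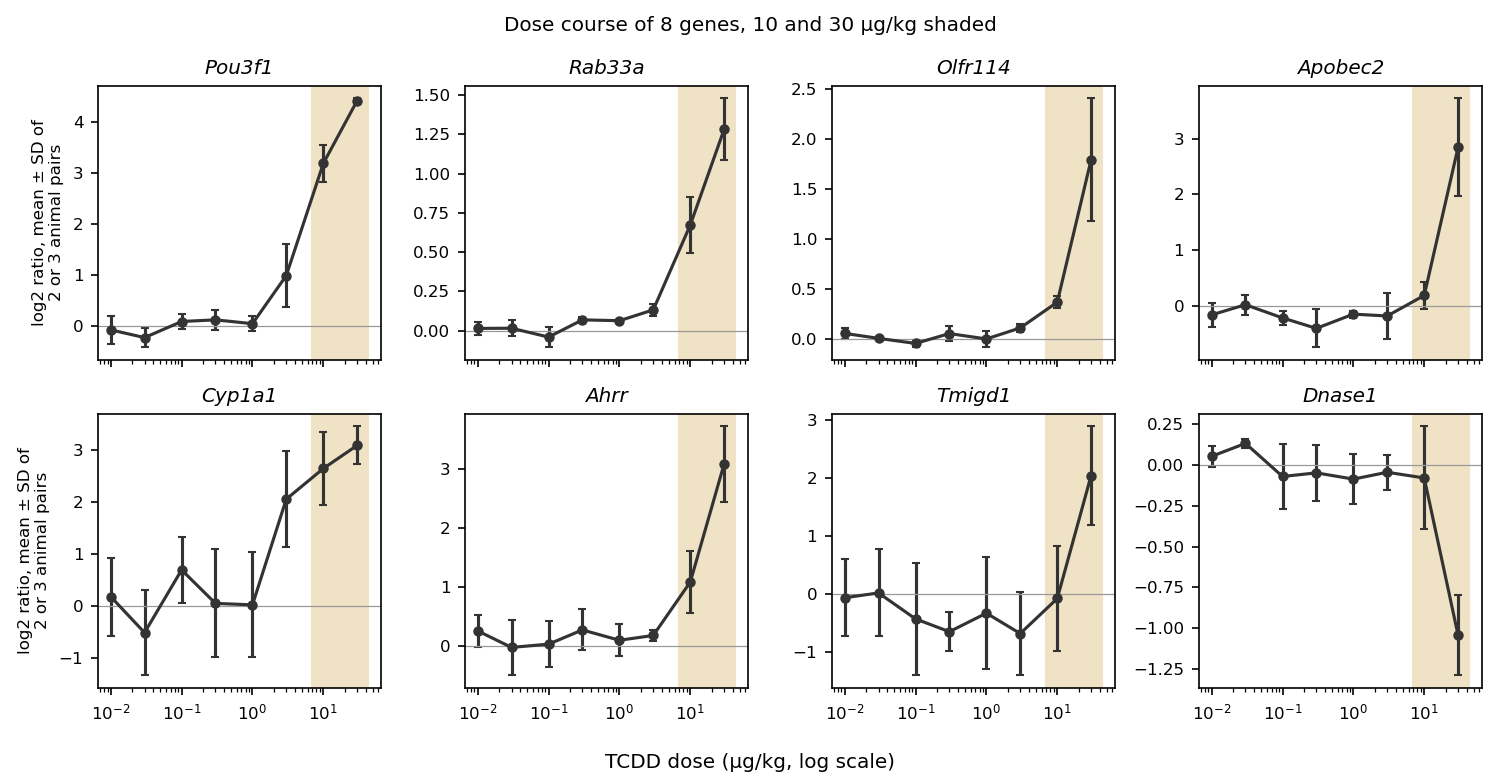
Mean log2 ratio of treated over vehicle ± SD of 2 or 3 animal pairs (y axis, its own scale in each panel) against dose in µg/kg (log x axis) for 8 genes, with 10 and 30 µg/kg shaded. Pou3f1 reached 3.20 at 10 µg/kg and 4.43 at 30 µg/kg, while Apobec2 went from 0.19 to 2.84 and Dnase1 from -0.08 to -1.04.

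Below the threshold, the 7 genes with the smallest p and 3 negative differences, predicted genes left out, had adjusted p values from 0.0664 to 0.123, and none is called lower. Aldh1a1, which makes retinoic acid, had log2 ratios of 0.08, -0.10 and 0.06 at 10 µg/kg and then -0.61, -0.70 and -0.25 at 30 µg/kg. These do not overlap, and the difference was -0.53 ± 0.20 (limma adjusted p 0.0664). Aadac, a microsomal esterase, had -0.81 ± 0.46 and the coiled-coil gene Ccdc102a -0.49 ± 0.09, both at the same adjusted p, as had Nrgn at -0.45 ± 0.16. The lysophosphatidic acid phosphatase Acp6 (-0.49 ± 0.16), the receptor gene Olfr1153 (-0.53 ± 0.14) and the leucine-catabolism subunit Mccc1 (-0.57 ± 0.16) followed. The array medians removed by centring were -0.0857 to 0.0279, and those of all 6 arrays at 30 µg/kg were below those of all 6 at 10 µg/kg. Without centring, which moves the median of all genes to -0.06, 15 genes were called, 8 higher and 7 lower, against 10 and 1 with it. All but Mccc1 of these 7 genes were then called lower.

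Gene lists of the tissue gave no further calls, and they are described by how many measured members passed an unadjusted p of 0.05, a share to be read against 3.42% (higher) and 3.28% (lower) of all genes. The retinoid list had 6 of 22 members lower and 0 higher, with a median of -0.09. These were Aldh1a1, Adh4 (-0.98 ± 0.13), Rdh7 (-0.72 ± 0.52), Aldh1a2 (-0.21 ± 0.15), Aldh1a3 (-1.25 ± 0.84) and the retinol esterifying enzyme Lrat (-0.36 ± 0.28). Adh4, an alcohol dehydrogenase that oxidises retinol, had log2 ratios of -0.68, -0.80 and -0.12 at 10 µg/kg, against -1.70, -1.89 and -0.96 at 30 µg/kg, with no overlap and a limma adjusted p of 0.180. The count stayed between 4 and 8 when any replicate was left out.

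In the brush border and enterocyte list, 4 of 20 were lower: the vitamin B12 receptor Cubn, the trehalase Treh (-0.31 ± 0.24), the peptidase Ace (-0.33 ± 0.08) and the transcription factor Cdx1 (-0.27 ± 0.23). The list as a whole moved little: 8 of 20 had a mean above 0, and the median was -0.02. By vehicle animal the median was 0.04, -0.18 and 0.02, in the order of animals 2, 4 and 6. Cubn had log2 ratios of 1.36, -0.52 and -0.28 at 10 µg/kg, against 0.23, -3.61 and -1.43 at 30 µg/kg. These overlap, and the difference of -1.79 ± 1.13 was not called (limma adjusted p 0.180). Without replicate 2 (vehicle animal 4) 1 member was lower. The list of UGT, sulfotransferase and carboxylesterase genes had 4 of 17 lower, among them Ces1e (-0.54 ± 0.27) and Ugt2b36 (-0.70 ± 0.20), and Sult1d1 (0.39 ± 0.10) higher. Without replicate 1 or replicate 2 that count was 1.

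For sterols, 6 of 19 cholesterol synthesis genes were higher at an unadjusted p under 0.05 and 0 lower: Fdps (0.31 ± 0.16), Mvd (0.34 ± 0.33), Sqle (0.47 ± 0.37), Dhcr7 (0.23 ± 0.15), Nsdhl (0.22 ± 0.11) and the regulator Srebf2 (0.21 ± 0.18). The median by vehicle animal was 0.07, 0.34 and 0.03, highest for animal 4, and without replicate 2 the count was 0. Of 10 sterol transport genes, 2 were lower: the intestinal cholesterol importer Npc1l1 (-0.48 ± 0.28) and the lysosomal exporter Npc1 (-0.30 ± 0.19). Of 16 heme and iron genes, the heme synthesis enzymes Alas1 (0.70 ± 0.60) and Cpox (0.61 ± 0.51) were higher at that p, and another enzyme of that pathway, Urod (-0.21 ± 0.16), was lower. The differences of Alas1 were 1.07, 1.02 and 0.01 in the order of vehicle animals 2, 4 and 6, and those of Cpox 0.38, 1.19 and 0.25, largest for animal 4.

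Of the 14202 genes tested, 7525 had a mean above 0, against 24 of 25 proliferation genes, whose median was 0.35. Among these 25, 7 were higher at an unadjusted p under 0.05. They included Top2a (0.34 ± 0.23, 17 pairs in the fit), the replication helicase subunit Mcm5 (0.39 ± 0.21), the mitotic kinase genes Cdk1 (0.37 ± 0.14) and Aurka (0.58 ± 0.66), and Cdkn1a (0.43 ± 0.09), which encodes an inhibitor of the cell cycle. The median by vehicle animal was 0.21, 0.52 and 0.05. Leaving out replicate 1, 2 or 3 gave 6, 3 and 15 members.

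Markers of immune cells moved in different directions. In such bulk samples fewer cells of a type and less RNA per cell cannot be told apart. Of 17 macrophage and dendritic cell genes, 6 were lower at an unadjusted p under 0.05 and 0 higher, among them the complement subunit C1qc (-0.86 ± 0.59), Aif1 (-0.68 ± 0.50) and Adgre1, which encodes the F4/80 antigen (-0.35 ± 0.02). The count was 2, 1 and 4 without replicate 1, 2 and 3. Of 24 genes of T cells and intraepithelial lymphocytes, Gzmb (0.55 ± 0.13), Zap70 (0.39 ± 0.11) and Cd8a (0.28 ± 0.12) were higher and Cd2 (-0.32 ± 0.41) lower. The 10 measured MHC class II genes had medians of -0.63, 0.41 and 0.09 in the 3 differences, which differ in sign.

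The pairs at 30 µg/kg were not alike in genes of the exocrine pancreas. Over the 19 of 32 listed genes measured, the median log2 ratio was 0.09, 0.01 and 0.02 at 10 µg/kg and then 2.83, -0.01 and 0.80 at 30 µg/kg, in the order of vehicle animals 2, 4 and 6. In the difference, 18 of 19 were above 0, where 7525 of all 14202 genes were. Only 2 passed an unadjusted p of 0.05, Klk1 (0.89 ± 1.09) and Ctrl (0.51 ± 0.53), since the spread was large. The trypsinogen gene Prss2 had differences of 3.61, 0.02 and 1.60 and the procarboxypeptidase gene Cpa1 3.73, 0.01 and 1.49. Their part in the results was not tested. A fit without the pairs of vehicle animals 2 and 6 at 30 µg/kg leaves 1 pair at that dose. Its calls are counted only among the processing alternatives, and no result is drawn from them. In the difference of vehicle animal 4 the 11 called genes had the same sign as in the other 2 differences. They were called on the mean of all 3, so this shared sign is no separate check. For vehicle animal 4 the rises ran from 0.47 (Olfr1182) to 3.52 (Apobec2), and Dnase1 had -1.09.

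**Figure D5:**
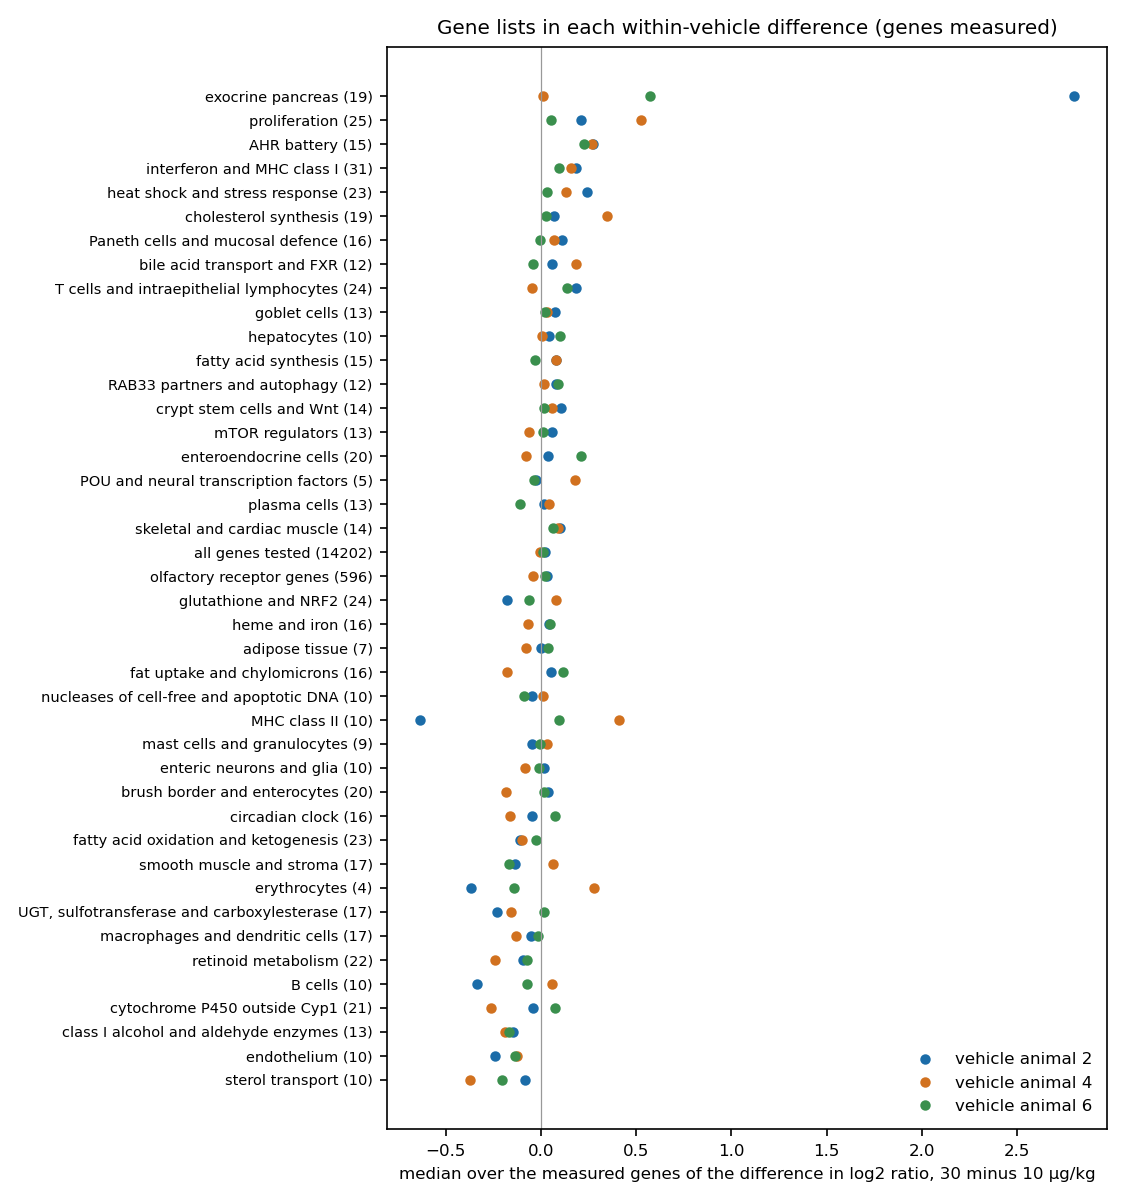
Median difference in log2 ratio between 30 and 10 µg/kg (x axis) over the measured genes of each list (y axis, number measured in brackets), 1 point per vehicle animal. Exocrine pancreas genes spread from 0.01 to 2.80, MHC class II genes from -0.63 to 0.41, and all 3 points of the AHR battery lie between 0.22 and 0.28.

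How alike the 3 differences were varied. Across genes, which are not independent replicates, the Cy5 and Cy3 differences of a vehicle animal correlated at 0.58, 0.50 and 0.25 for animals 2, 4 and 6, and share the treated and vehicle RNA. The 3 differences correlated with each other at 0.32, 0.28 and 0.17, and their SDs across genes were 0.25, 0.28 and 0.19. The pairs of vehicle animal 6 gave the smallest spread and the least alike arrays.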

How the data were processed

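Per the labels' protocols, RNA was extracted with TRIzol and given its Cy3 or Cy5 dye by the Agilent manual. The authors deposited 1 table of log2 values, log ratios of the 2 channels of each array; the base is taken, not stated, and scanner software, background correction, normalization and filter are not given in the sources used here, nor is a slide or scan date. Nothing was imputed. Ratios were centred on each array's median, averaged over the 2 arrays of a pair and over the kept probes of a gene. Probe names came from the platform annotation: 32555 probes had 1 symbol, and 32416 matched the GRCm38.p6 gene table by gene ID. A pair at another dose that lacked a probe of a gene left the fit for that gene, so 11677 genes had all 24 pairs and the fewest pairs behind a gene was 8.

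The fit used limma 3.58.1 (R 4.3.3) with 1 mean per dose and the replicate number, which is the vehicle animal per the labels, as a block, then eBayes and Benjamini-Hochberg adjustment over all genes, two-sided. Its estimate equals the mean of the 3 differences, and its spread comes from all doses. The pairing was checked: with dose means removed, pairs sharing a vehicle animal correlated across genes at a mean of 0.28 over 84 combinations. The mean of -0.14 for the other combinations follows from removing the dose means and is no separate check. The replicates are different treated animals. The script was tested on simulated data.

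The comparison, the 42 gene lists and the rules were chosen with earlier results of these data known, so no count over a list is independent evidence. Named are the called genes with 1 sign (at most 12 each way, filled to 8 by p), all measured AHR battery genes, the nuclease, RAB33 and POU lists, and the 2 smallest p of every other list. Acta1, Prss2, Cpa1, Myod1, Myog, Des and list members passing an unadjusted p beyond these were named after their values were seen. Alternatives covered block, centring, quantile normalization, dye orientation, shared-value and incomplete probes, probe summary, robust eBayes, a fold minimum and omitted replicates.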

Additional observations from a re-analysis of the deposited data

How the results depend on the processing

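The 11 calls, 10 higher and 1 lower, were 11 again with shared-value probes kept, with the median of a gene's probes, with robust eBayes and with a 1.5-fold minimum, and the same genes were called each time. With no replicate block 8 of them were called, 7 higher and 1 lower. The estimated differences are the same with or without the block, so no direction could change there. The 3 differences alone gave 0 calls, 0 higher and 0 lower. Values as deposited, without centring, gave 15, 8 higher and 7 lower, and Insl6 and Pask were no longer called. Quantile normalization gave 3 (Apobec2, Dnase1 and Olfr114), 2 higher. Pairs with the treated animal in Cy5 only or in Cy3 only gave 7 each, 6 higher. Probes complete on all 48 arrays gave 7, 6 higher, since Ahrr, Apobec2, Cyp1a2 and Pask were not tested there. Probes in place of genes gave 12, 10 higher and 2 lower, with Chpt1 and Tmsb10 gained and Pask lost. Leaving out 1 replicate gave 1 to 12 calls, 1 to 9 higher and 0 to 3 lower, and 0 to 1 for the step test; without replicate 1 only Apobec2 was called. Without the pairs at 30 µg/kg with exocrine pancreas genes there were 22 calls, 8 lower, and 7 for the step test. The fit without the pancreas pairs kept only 1 pair at 30 µg/kg. Its counts therefore rest on 1 treated animal at that dose, and no conclusion is drawn from them. No called gene changed sign except Pou3f1 under quantile normalization (-0.0094). Among genes not called, Cyp1a1 reversed under quantile normalization (-0.44), Gsta1 without centring (-0.0021), Nfe2l2 with the median of probes (0.011), when 1 replicate was left out (-0.15 to 0.071) and without the pancreas pairs (0.042), and Lgals3 without those pairs (-0.22). Apart from the tests with fewer genes or pairs and the ranks behind quantile normalization, the cause was not tested. Counts of list members under omitted replicates, no block and no centring were added after seeing the data.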

Other observations

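Some probes near the threshold belong to genes with several probes or to no named gene, and were picked here after their values were seen. At the level of single probes, a probe of Chpt1, which makes phosphatidylcholine, had a difference of -0.67 ± 0.13 (SD, n = 3; limma adjusted p 0.00371), while its other probes had -0.38 ± 0.13 and -0.22 ± 0.24. The 2 probes of Tmsb10, an actin-binding thymosin, had 0.74 ± 0.37 (limma adjusted p 0.038) and 0.57 ± 0.21. Of 3 probes of the GABA receptor gene Gabbr1, 1 had 1.28 ± 0.43 (limma adjusted p 0.0904) and the others -0.01 and -0.05. A probe with no gene name in the annotation had differences of 1.34, 1.13 and 0.90 (limma adjusted p 0.0592), and the predicted gene Gm15246 had 1.39, 0.95 and 0.52 (limma adjusted p 0.0975 at the level of probes). Wdr11, a trafficking protein with WD repeats, had 0.72 ± 0.24 (limma adjusted p 0.0832 at the level of probes).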
